A study of Mus musculus with 36 samples.

Results

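The genes described here encode the enzymes that add methyl groups to histones and DNA (writers) and those that take them off (erasers). They were chosen by name and biochemical activity: 32 writers that use S-adenosylmethionine (SAM) and 15 erasers, 47 genes of 136300 in the liver table and of 32266 in the table of mouse embryonic fibroblasts (MEFs). All 47 were found in both tables. Only Tet1 stayed under the filters for low values, with 0 to 0.134 CPM (counts scaled to 1000000 per library) in the liver libraries and MEF group means of 4.97 to 5.16 log2 units, so 46 members (32 writers and 14 erasers) were tested in each.

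The study measured polyadenylated RNA in livers and MEFs in which Cre was used to target Vps15 (gene Pik3r4), the partner protein that class 3 PI3K needs to make its lipid. The liver samples came from 4-week-old male mice killed at zeitgeber time 14, either fed ad libitum or after 24 h without food, with 3 libraries in each of 4 groups. Wild-type (WT) livers were compared with livers labelled Ttr CRE+, Vps15f/f, here called knockout-labelled, in which Cre is driven from the hepatocyte-expressed transthyretin promoter. The MEFs were 1 line of floxed cells (Vps15f/f) given adenovirus with GFP (labelled WT) or with CRE (labelled Vps15KO), in 4 media: basal medium, which is high-glucose medium without serum; methionine-free medium for 4 h (deprived); and the same 4 h followed by methionine for 1 h or 4 h (replenished). Each of the 8 MEF groups had 3 libraries, reported here by column heading, GFP or CRE.

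Powdered whole liver was extracted although the labels name hepatocytes. In such bulk samples fewer cells of a type and less RNA per cell cannot be told apart. Nothing in the labels says that libraries of a group came from separate animals or cultures, so the p-values measure the spread between these libraries, which may be technical.

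Writers transfer the methyl group of SAM, which cells make from methionine, to lysine or arginine side chains of histones or to cytosine in DNA. Erasers work in other ways. The LSD enzymes (Kdm1a, Kdm1b) oxidise the methyl group with FAD, whereas the Jumonji C (JmjC) demethylases and the TET enzymes, which oxidise methylcytosine, need iron, oxygen and 2-oxoglutarate. Marks at H3K4 and H3K36 are typical of active genes and transcribed gene bodies, and those at H3K9 and H3K27 of silent chromatin.

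Promoter sequence was matched from RefSeq (GRCm38.p6) for 35 of the 47 members, which have 50 transcription starts in that table, each with 250 bases before and 50 after the start. E2F-type motifs (TTTGGCGC, TTTCGCGC or TTTCCCGC, either strand) were in 606 of 32851 promoters of that length (1.84%) and in promoters of 3 members, Dnmt1, Ezh2 and Kmt5c. The AP-1 motif TGAGTCA was in 1709 promoters (5.2%) and in those of Kdm3a and Kdm4a. A match describes letters and shows no binding. The promoters of 3 of these members, whose levels are described below, are given 5′ to 3′ on the gene's strand, with the motif in capitals. Dnmt1 has 3 starts in the table, of which 1 holds the motifs (chr9:20952574-20952873, minus strand). Counted from the start, its motifs begin at base −219, where it is read on the opposite strand, and at base 34. That of Ezh2 (chr6:47594981-47595280, minus strand) begins at base 4, and the AP-1 motif of Kdm4a (chr4:118179994-118180293, minus strand) at base −190.
Dnmt1: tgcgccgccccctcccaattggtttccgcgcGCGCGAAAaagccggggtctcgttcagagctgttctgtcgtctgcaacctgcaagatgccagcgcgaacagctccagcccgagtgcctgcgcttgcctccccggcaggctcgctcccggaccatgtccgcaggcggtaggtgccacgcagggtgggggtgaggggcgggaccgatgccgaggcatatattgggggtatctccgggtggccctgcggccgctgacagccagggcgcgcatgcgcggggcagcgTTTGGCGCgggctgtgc
Ezh2: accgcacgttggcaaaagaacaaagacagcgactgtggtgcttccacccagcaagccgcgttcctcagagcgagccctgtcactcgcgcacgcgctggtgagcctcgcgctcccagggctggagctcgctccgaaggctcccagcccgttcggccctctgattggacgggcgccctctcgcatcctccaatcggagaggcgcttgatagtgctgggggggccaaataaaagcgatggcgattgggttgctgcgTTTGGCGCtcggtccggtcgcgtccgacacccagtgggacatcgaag
Kdm4a: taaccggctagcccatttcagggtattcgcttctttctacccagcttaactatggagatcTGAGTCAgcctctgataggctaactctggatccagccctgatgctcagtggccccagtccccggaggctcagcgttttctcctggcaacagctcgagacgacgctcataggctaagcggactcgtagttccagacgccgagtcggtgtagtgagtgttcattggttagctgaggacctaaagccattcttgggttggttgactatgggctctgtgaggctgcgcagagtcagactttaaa

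Depth was 9110836 to 12870944 counts per liver library. The MEF table holds log2 values from which whole counts were recovered (100% of values within 0.01), with 19345029 to 21245006 per library. One MEF library, CRE 4 h replenished library 3, stood apart from its 2 replicates, with a chi-square per degree of freedom of 18.11 and 16.32 where all other MEF replicate pairs gave 1.814 to 4.712. Pik3r4 did not drop under either knockout label: it was at 17.6 to 24.7 CPM in the WT livers and 18.2 to 25.3 in the knockout-labelled livers, and at group means of 9.64 to 10.13 log2 units in MEFs. Counts outside the deleted part of the gene check nothing about the deletion, and the files do not place the deletion. In WT livers the 12 hepatocyte markers summed to 39000 to 51000 CPM and in knockout-labelled livers to 16000 to 19600. In MEFs, 11 of 12 fibroblast markers passed the filter, and hepatocyte markers summed to at most 1.65 CPM.

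Writers had the larger summed level, over 32 genes against 15. The ratio of the sums therefore reflects the number of genes as well as their levels. Levels between genes are compared per kilobase of exon. In liver the 32 writers summed to 119 to 135 CPM per kilobase in WT and 142 to 160 in knockout-labelled libraries. The 15 erasers summed to 37.8 to 45.9 over all 12 libraries. The ratio of these sums was 2.70 to 3.11 in fed WT, 2.87 to 3.03 in fasted WT, 3.29 to 3.76 in fed knockout-labelled and 3.65 to 3.86 in fasted knockout-labelled livers, so the WT and knockout-labelled ranges did not overlap. This rested in large part on 1 writer, Kmt5a. Without it, an alternative chosen after seeing the data, the ratio was 2.45 to 2.76, 2.65 to 2.79, 2.78 to 3.06 and 2.88 to 3.14 in the same order, so the ranges were apart within a feeding state but met between states. Per kilobase, the H3K9 writer Ehmt2 (also called G9a) stood at 20.1, 19.1, 21.8 and 22.9 in these 4 groups.

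Fasting changed 9 of the 46 tested members in WT liver. Of 32 writers 4 rose and 3 fell, and of 14 erasers 1 rose and 1 fell, where 12.4% of all 23875 tested genes rose and 14% fell (edgeR's quasi-likelihood test, Benjamini-Hochberg adjusted over all genes, threshold 0.05). Under library sizes alone the middle of all changes sat at −0.19, and writers were 1 higher and 8 lower and erasers 0 and 5 (all genes, 1788 and 5216). With Ensembl genes only, writers were 8 and 3 and erasers 2 and 1. The median log2 change was −0.03 for writers and 0 for erasers. Dnmt1, the enzyme that copies DNA methylation to the new strand after replication, was at 16.2, 15.7 and 15.4 CPM in fed and 6.7, 10.3 and 9.49 in fasted WT livers. All 3 fasted libraries were below all fed ones, a log2 change of −0.84 ± 0.16 (SE, adjusted p = 0.0012). Setd1b, the catalytic subunit of an H3K4 methyltransferase complex, was at 72.8, 57 and 66.1 fed and 95.2, 108 and 93.2 fasted (0.60 ± 0.13, adjusted p = 0.00394), with no overlap. Kdm1b, an LSD-type eraser of H3K4 methylation, was at 31.9, 34.2 and 37.3 fed and 20.2, 20 and 26.7 fasted (−0.63 ± 0.14, adjusted p = 0.0035). These 3 calls passed under every alternative setting. Kdm3a, a JmjC eraser of H3K9 methylation, was at 17.2, 16.5 and 14.8 fed and 23.2, 28.2 and 19.5 fasted (0.55 ± 0.17, adjusted p = 0.0247).

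The remaining calls on fasting were for the H3K79 writer Dot1l (0.50), the H4K20 writer Kmt5b (0.44), the arginine writer Carm1 (0.38) and the H3K36 writers Nsd1 (−0.42) and Nsd2 (−0.61). These 5 and Kdm3a each missed the threshold with at least 1 library left out. Dot1l fell to 0.31 (adjusted p = 0.0843) and Kdm3a to 0.39 (adjusted p = 0.139) without fasted WT library b. The library letters a, b and c follow the column order and carry no pairing. Among 20 proliferation genes, 10 fell with fasting and none rose, their sum going from 72.8 to 108 CPM in fed to 45.6 to 47.6 in fasted WT livers. Over the same groups the sum of 12 macrophage markers went from 1580 to 2080 down to 524 to 726. The part of these cells in the changes was not tested.

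In knockout-labelled livers no writer and no eraser passed the test for fasting, where 0.792% of all genes rose and 0.599% fell. DESeq2 also called 0 members. At an unadjusted p under 0.05 there were 12 of 46 members, against 17.8% of all genes. The smallest adjusted p was that of Dot1l, 0.123. Dnmt1, at 28.3, 35 and 36.7 fed, was at 31.4, 30.6 and 30.2 fasted, so its ranges overlapped. The difference between the fasting responses of the 2 genotypes was tested as an interaction, which called 3 writers and no eraser (6.35% of all genes higher and 5.7% lower). Dnmt1 (0.72 ± 0.21, adjusted p = 0.0352) and Prmt1 (0.87 ± 0.24, adjusted p = 0.0282), the main writer of asymmetric arginine dimethylation, were positive, and Setd1b (−0.65 ± 0.19, adjusted p = 0.0346) was negative. None of the 3 calls held with every library left out in turn. Dnmt1 missed the threshold without any 1 of 8 of the 12 libraries (0.59 at the lowest, without fasted WT library a, adjusted p = 0.0729), Prmt1 without any of 6 (0.75 without fasted knockout-labelled library c, adjusted p = 0.0679) and Setd1b without any of 9 (−0.55 without fasted WT library b, adjusted p = 0.107).

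More members passed for the knockout label than for fasting, in both directions, as did more of all genes. In fed livers 8 writers were higher and 5 lower, and 4 erasers were higher and 2 lower (all genes, 23.4% higher and 23% lower). In fasted livers 10 writers were higher and 8 lower, and 2 erasers higher and 2 lower (all genes, 28.2% and 28.1%). The median absolute log2 change was 0.22 for writers and 0.33 for erasers fed, where all genes had 0.51, and 0.37 and 0.21 fasted, where all genes had 0.67. With library sizes alone in place of TMM scaling, the median of all genes moved by 0.39 fed and 0.52 fasted. The calls then became 27 members higher and 1 lower fed, with 9968 and 3092 over all genes, and 28 higher and 1 lower fasted, with 11731 and 3576. Changes below are relative to the TMM scale, on which the median of all genes is near 0. Most members with library values printed, in both tissues, were picked by smallest adjusted p. For them, groups without overlap restate the call and add no support to it.

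**Figure D1:**
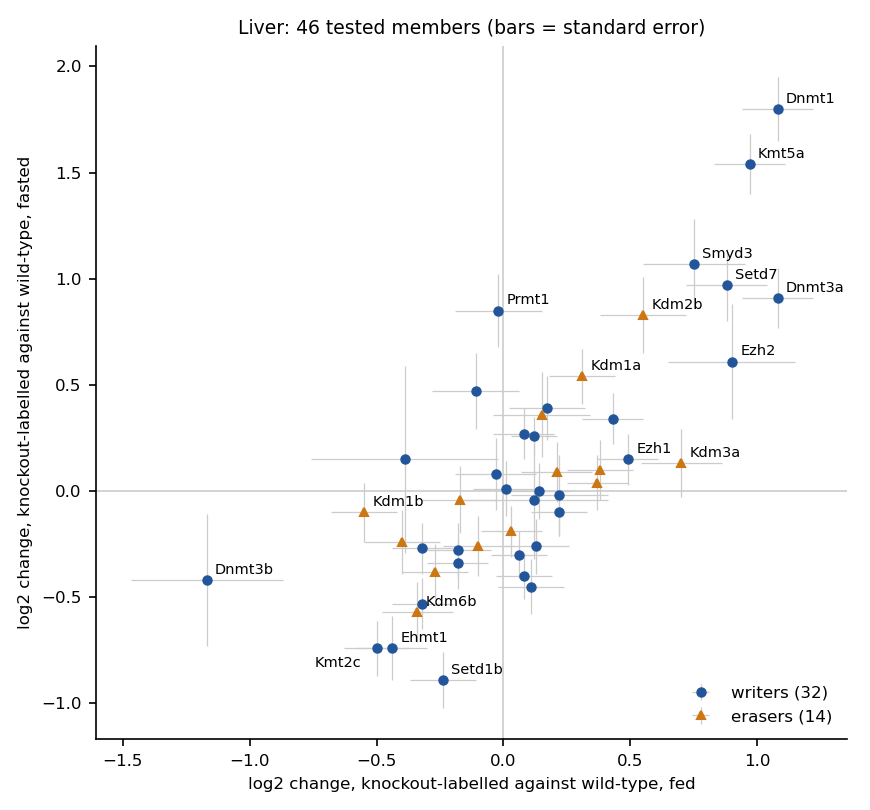
Log2 change of 46 members between knockout-labelled and WT livers, fed on the horizontal and fasted on the vertical axis, with bars for 1 standard error. Circles are the 32 writers and triangles the 14 erasers. Dnmt1 and Kmt5a lie at the upper right (1.08 and 1.80, 0.97 and 1.54), Prmt1 is near 0 on the fed axis only, and Setd1b, Kmt2c and Ehmt1 lie lowest on the fasted axis.

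Of the 3 DNA methyltransferases, Dnmt1 and Dnmt3a were higher in both states. Dnmt1 was at 28.3, 35 and 36.7 CPM in fed and 31.4, 30.6 and 30.2 in fasted knockout-labelled livers, above every WT value given above. This was 2.11-fold fed (log2 1.08 ± 0.14, adjusted p = 1.77e-05) and 3.48-fold fasted (1.80 ± 0.15, adjusted p = 1.28e-07). Dnmt3a, which places new methylation, was at 18.2, 18.4 and 16.9 in fed and 15.3, 18.3 and 14.7 in fasted WT livers, and at 32.8, 41.6 and 39 fed and 27.3, 35.8 and 28 fasted under the knockout label. The groups did not overlap in either state (2.12-fold, adjusted p = 1.44e-05, and 1.88-fold, adjusted p = 6.14e-05). Dnmt3b, the other enzyme for new methylation, was scarce and went the other way when fed, with 2.6, 3.27 and 3.67 in WT and 1.3, 1.3 and 1.61 in knockout-labelled livers (log2 −1.17 ± 0.30, adjusted p = 0.00466). When fasted its groups overlapped (−0.42 ± 0.31, adjusted p = 0.262). An antisense gene overlaps Dnmt3b and another overlaps Dnmt3a, and whether the counting used strand is not given in the sources used here.

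Kmt5a, which places the single methyl group on H4K20 in dividing cells, was at 71.3, 73.3 and 56.9 in fed WT livers and 116, 132 and 145 in fed knockout-labelled livers. The fasted values were 50, 60.5 and 52.1 against 152, 141 and 180. Neither pair of groups overlapped, and the fold was 1.96 fed (adjusted p = 3.29e-05) and 2.91 fasted (adjusted p = 2.22e-07). Its relatives Kmt5b and Kmt5c, which extend that mark, did not pass in either state. Among H3K4 writers, Setd7, a mono-methyltransferase that also acts on other proteins, was higher: 10.5, 13.1 and 11.8 against 24, 20.3 and 20.6 fed, and 7.35, 9.65 and 11.8 against 20.7, 18.3 and 17.3 fasted. No libraries overlapped (0.88 ± 0.16, adjusted p = 0.00035, and 0.97 ± 0.17, adjusted p = 0.000146).

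Smyd3, a SET and MYND domain lysine methyltransferase, was at 3.12, 2.94 and 4.48 against 6.11, 6.18 and 5.56 fed, and at 3.35, 2.88 and 3.02 against 7.13, 5.72 and 6.69 fasted. It was higher in both states without overlap (0.75 ± 0.20, adjusted p = 0.00623, and 1.07 ± 0.21, adjusted p = 0.000473). Prmt1 differed only in the fasted test: 17.6, 17.2 and 14 against 13.5, 19.9 and 14.5 fed (−0.02 ± 0.17, adjusted p = 0.919), and 13, 11.9 and 10.6 against 19.1, 20 and 24.9 fasted (0.85 ± 0.17, adjusted p = 0.000659). Both H3K27 writers passed in fed livers. Ezh2, the catalytic subunit of Polycomb repressive complex PRC2, changed by 0.90 ± 0.25 (adjusted p = 0.00814) and its relative Ezh1 by 0.49 ± 0.12 (adjusted p = 0.00274). When fasted neither passed, with 0.61 (adjusted p = 0.0656) for Ezh2 and 0.15 (adjusted p = 0.288) for Ezh1.

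**Figure D2:**
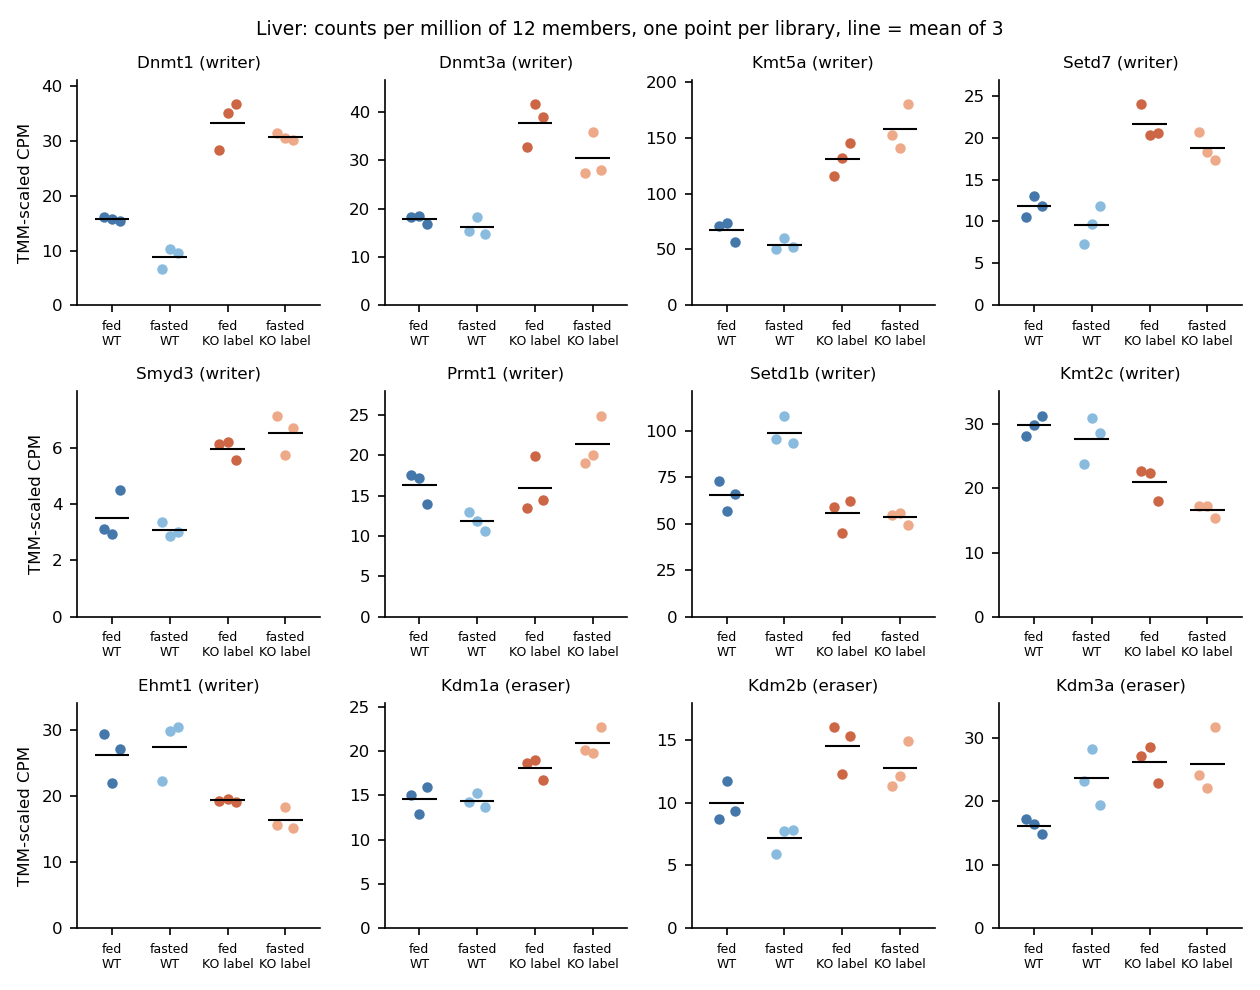
TMM-scaled CPM of 12 members in each of 12 liver libraries, one panel per gene with its own axis from 0. Points are libraries and lines the mean of 3. Dnmt1, Dnmt3a, Kmt5a, Setd7 and Smyd3 have no knockout-labelled point as low as the WT points of the same feeding state, whereas Prmt1 and Setd1b separate only in the fasted groups.

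Of the 7 H3K4 writers, 5 were lower and 1, Setd7, was higher in fasted knockout-labelled livers (28.1% of all genes were lower), while Setd1a gave 0 ± 0.13 (adjusted p = 0.991). With library sizes alone 3 of the 5 turned positive, as given below. Setd1b, at 95.2, 108 and 93.2 in fasted WT livers, was at 54.6, 56 and 49.4 under the knockout label (−0.89 ± 0.13, adjusted p = 4.11e-05), with no overlap. In fed livers it was at 59.2, 45.2 and 62, which overlapped WT (−0.24, adjusted p = 0.16). Kmt2c, an enhancer H3K4 mono-methyltransferase, was at 28.2, 29.8 and 31.3 against 22.7, 22.4 and 18 fed (−0.50 ± 0.13, adjusted p = 0.00528). Its fasted values were 23.7, 30.9 and 28.6 against 17.2, 17.3 and 15.4 (−0.74 ± 0.13, adjusted p = 0.000228), so both pairs of groups were apart. The other lower members in the fasted state were Kmt2a (−0.45), Kmt2b (−0.34) and Kmt2d (−0.40). These were the less firm calls: without fasted WT library a, Kmt2a gave −0.32 (adjusted p = 0.0703) and Kmt2d −0.32 (adjusted p = 0.0555), and Kmt2b gave −0.26 (adjusted p = 0.146), −0.29 (adjusted p = 0.114) and −0.24 (adjusted p = 0.127) without fasted WT library b or c or fasted knockout-labelled library c. Ehmt1, an H3K9 writer that pairs with Ehmt2, was at 29.4, 22 and 27.1 against 19.3, 19.6 and 19.1 fed and at 22.2, 29.8 and 30.4 against 15.6, 18.4 and 15.2 fasted (−0.44 ± 0.14, adjusted p = 0.0214, and −0.74 ± 0.15, adjusted p = 0.000517). With library sizes alone Kmt2c and Ehmt1 missed the threshold in both states (Kmt2c −0.12 fed and −0.22 fasted, Ehmt1 −0.06 and −0.23), Kmt2a, Kmt2b and Kmt2d turned to 0.07, 0.17 and 0.12, and Setd1b stayed lower fasted at −0.37. Ehmt1 in fed livers also missed it without fed WT library a (−0.34, adjusted p = 0.114) or c, or knockout-labelled library a or c.

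Of 14 erasers, 6 passed fed and 4 fasted. Kdm3a was at 17.2, 16.5 and 14.8 in fed WT and 27.2, 28.6 and 22.9 in fed knockout-labelled livers, without overlap (0.70 ± 0.16, adjusted p = 0.0025). When fasted, the WT values of 23.2, 28.2 and 19.5 overlapped 24.1, 22.1 and 31.7 (0.13, adjusted p = 0.504). Kdm1a (LSD1), the LSD-type eraser of H3K4 methylation, was at 14.2, 15.3 and 13.7 in fasted WT livers and 20.1, 19.8 and 22.7 in fasted knockout-labelled livers (0.54 ± 0.13, adjusted p = 0.00226), also without overlap. Its fed values of 15, 12.9 and 16 against 18.7, 19 and 16.7 gave 0.31 ± 0.13 (adjusted p = 0.0536). Kdm2b, a JmjC eraser that also brings a Polycomb complex to CpG islands, was at 8.73, 11.7 and 9.37 against 16, 12.3 and 15.3 fed (0.55 ± 0.17, adjusted p = 0.0161) and at 5.93, 7.77 and 7.84 against 11.3, 12.1 and 14.9 fasted (0.83 ± 0.18, adjusted p = 0.00123). Its groups were apart in both states, and the fed call was lost without fed WT library a (0.48, adjusted p = 0.0689) or c, or knockout-labelled library a or c. With library sizes alone these differences grew, to 1.07 for Kdm3a fed, 1.05 for Kdm1a fasted, 0.92 for Kdm2b fed and 1.34 for Kdm2b fasted.

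Lower erasers were few. Kdm1b was at 25.3, 23.7 and 21.7 in fed knockout-labelled livers, below all fed WT values (−0.55 ± 0.13, adjusted p = 0.00342), and at 20.2, 18.9 and 23.4 when fasted, where it overlapped WT (−0.10, adjusted p = 0.57). Kdm6b, an H3K27 eraser, was at 64.7, 80.4 and 68.9 in fasted WT and 46.7, 47.9 and 49.7 in fasted knockout-labelled livers (−0.57 ± 0.14, adjusted p = 0.00344), and an antisense gene overlaps it. With library sizes alone both differences missed the threshold, at −0.17 for Kdm1b fed and −0.06 for Kdm6b fasted. The remaining called erasers were Kdm5a (0.37), Kdm7a (0.38) and Tet2 (−0.40) fed and Kdm4b (−0.38) fasted. Each of these 4 missed the threshold with at least 3 of the 6 compared libraries left out in turn.

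Among the remaining writers, Carm1 was higher in both states (0.43 fed, 0.34 fasted), Nsd3 lower in both (−0.32 and −0.53) and Nsd1 lower fed (−0.32). In fasted livers Nsd2 (0.47), Smyd2 (0.39) and Ehmt2 (0.26) were higher and the H3K36 writer Ash1l was lower (−0.30). Apart from Nsd3 fasted, which missed the threshold only with library sizes alone (−0.02), these calls were lost with 1 or more libraries left out, with values down to 0.25 for Smyd2 and 0.33 for Nsd2 without fasted knockout-labelled library c, −0.20 for Ash1l without fasted WT library b and −0.21 for Nsd3 fed without fed WT library a.

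Genes around the members moved as follows. Of all genes, 23.4% were higher and 23% lower fed, and 28.2% and 28.1% fasted. Of 18 further writers tested, 2 were higher and 2 lower fed and 3 higher and 5 lower fasted, with Smyd1 at −1.24 and −1.71 and Prmt2 at 1.33 and 2.11. Of 12 further erasers, 1 was higher and 3 lower fed and 1 higher and 2 lower fasted. The higher one was Hr, a JmjC corepressor, at 2.60 and 2.69. None of 12 COMPASS partners was higher, while 4 were lower in each state, among them Wdr82 (−0.53 and −0.88), which binds the Setd1 complexes, and Men1 (−0.46 and −0.67), which binds Kmt2a. Of 10 PRC2 partners 2 were higher fed, and 2 higher and 2 lower fasted. Genes of SAM supply and use were mostly lower, 6 of 11 fed and 7 of 11 fasted. Mat1a, the liver SAM synthetase, was at −3.96 ± 0.32 fasted (adjusted p = 7e-08), and Ahcy, which clears the product of methyl transfer, at −1.62 ± 0.15 fed (adjusted p = 7.32e-07). Uhrf1, the partner that guides Dnmt1 to replicating DNA, was at 1.80 ± 0.31 fed (adjusted p = 0.000213) and 5.35 ± 0.60 fasted (adjusted p = 2.27e-06).

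Cell markers also differed between the liver groups. Of 20 proliferation genes, 18 were higher and none lower in both states, with sums of 171 to 246 CPM in fed and 126 to 160 in fasted knockout-labelled livers. The 12 macrophage markers summed to 2760 to 3140 and 2520 to 2890 there, the 6 ductal markers to 152 to 225 and 198 to 300 (WT, 51.2 to 57.3 fed and 43.6 to 51.7 fasted) and the 9 stellate markers to 655 to 869 and 619 to 671 (WT, 554 to 586 and 437 to 463). Endothelial sums were 774 to 904 and 782 to 868 (WT, 674 to 815 and 541 to 644), and lymphocyte sums were 10.5 to 15.1 and 8.43 to 14 (WT, 10.8 to 14.1 and 4.13 to 6.19). No listed marker was at 0 in all libraries. Their part in the differences of Dnmt1, Kmt5a, Ezh2 and the other members was not tested.

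In MEFs, the heading comparison changed sign with the medium across the whole table, which has to be read before any member. Across 13914 tested genes, the CRE minus GFP log2 differences had a Pearson r of 0.91 between basal and deprived medium and 0.87 between 1 h and 4 h of replenishment, but −0.56 and −0.55 between basal and the 2 replenished media and −0.60 and −0.61 between deprived and those media. These medium-specific comparisons share no libraries. Genes are not independent replicates, and no p is given. Of the members called in both basal and 1 h replenished medium, 17 of 20 had opposite signs, the 3 with the same sign being Ezh2, Kdm7a and Kdm2b. Of all genes called in both, 4440 of 5332 (83.3%) had opposite signs. For deprived and 4 h replenished medium it was 20 of 25 members and 5198 of 6010 genes (86.5%). The members thus changed sign about as often as the whole table. Pik3r4 itself kept its sign, CRE minus GFP being 0.23 (adjusted p = 0.000332), 0.21 (adjusted p = 0.000557), 0.15 (adjusted p = 0.0163) and 0.05 (adjusted p = 0.414) in basal, deprived, 1 h and 4 h medium. The CRE libraries lay above the GFP libraries without overlap in the first 3 of these media. Whether the headings of the replenished columns match the cells was not tested further, and the groups are given as headed.

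**Figure D3:**
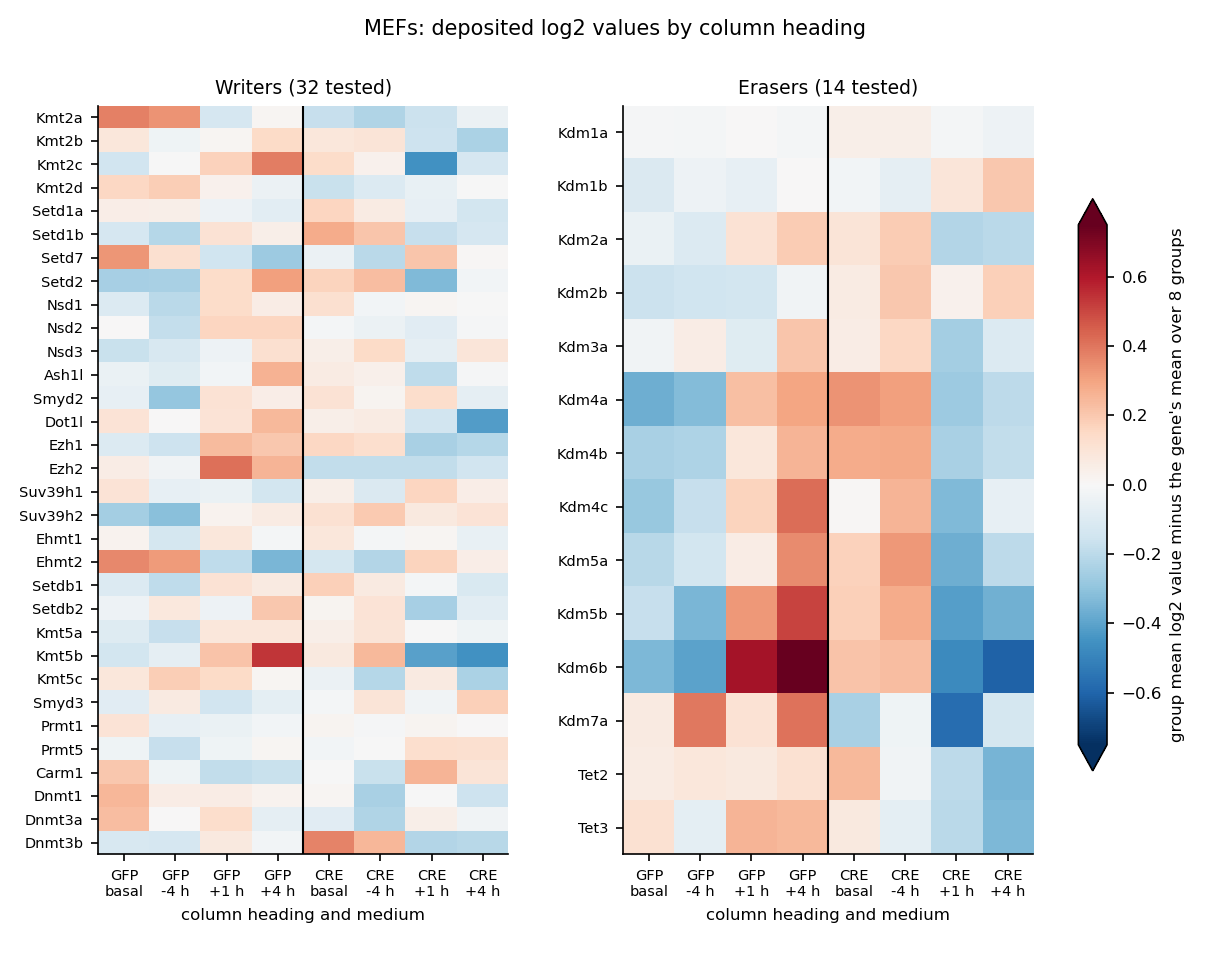
Group mean log2 value of each tested member minus its mean over the 8 MEF groups, writers (32) on the left and erasers (14) on the right; columns are heading and medium. Most JmjC erasers are high under CRE in basal and deprived medium and under GFP in both replenished media, while Ehmt2 and Setd7 show the opposite pattern and Kdm1a stays near its mean.

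Most called erasers, chiefly JmjC enzymes, had the same sign within a medium. Between CRE and GFP in basal medium, 11 writers were higher and 6 lower, and 8 erasers were higher and 1 lower (all genes, 29.7% higher and 28.6% lower; limma, Benjamini-Hochberg adjusted over all genes). In deprived medium it was 14 and 7 writers, and 9 and 1 erasers (all genes, 32% and 30.6%). After 1 h of methionine, 5 writers were higher and 12 lower and 2 erasers higher and 11 lower (26.9% and 28.1%), and after 4 h, 6 and 13 writers and 2 and 11 erasers (30.8% and 29%). The median log2 difference of the 4 media was 0.06, 0.09, −0.09 and −0.12 for writers and 0.20, 0.32, −0.38 and −0.47 for erasers, where that of all genes was 0, 0, 0 and 0.01. The median absolute difference was 0.26, 0.39, 0.38 and 0.47 for erasers and 0.21, 0.24, 0.19 and 0.22 for all genes. Of the 10 JmjC erasers 8, 9, 1 and 1 were higher and 1, 1, 9 and 9 lower. With every library shifted to 1 median, the middle of all differences moved to −0.07, −0.08, 0.07 and 0.05, and erasers higher and lower were 7 and 1, 8 and 1, 2 and 10, and 2 and 11. Writers became 7 and 9, 10 and 9, 7 and 7, and 6 and 10, so the balance of writers rested on the scaling. All genes higher and lower were then 3204 and 5111, 3582 and 5449, 4903 and 3067, and 4924 and 3575.

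The summed levels put the 2 classes side by side. Per kilobase, the 32 writers summed to 494 to 536 CPM in all 24 MEF libraries. The 15 erasers summed to 95.6 to 105 in the GFP basal, GFP deprived, CRE 1 h and CRE 4 h libraries and to 129 to 150 in the other 12. The ratio of writers to erasers was 4.70 to 5.58 in the first set and 3.47 to 4.10 in the second. These 2 sets were formed after seeing the data and follow the change of sign found across the whole table. The gap between them is therefore no test. Without Kdm6b, also chosen after seeing the data, the ratio was 5.39 to 6.42 and 4.32 to 4.99.

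**Figure D4:**
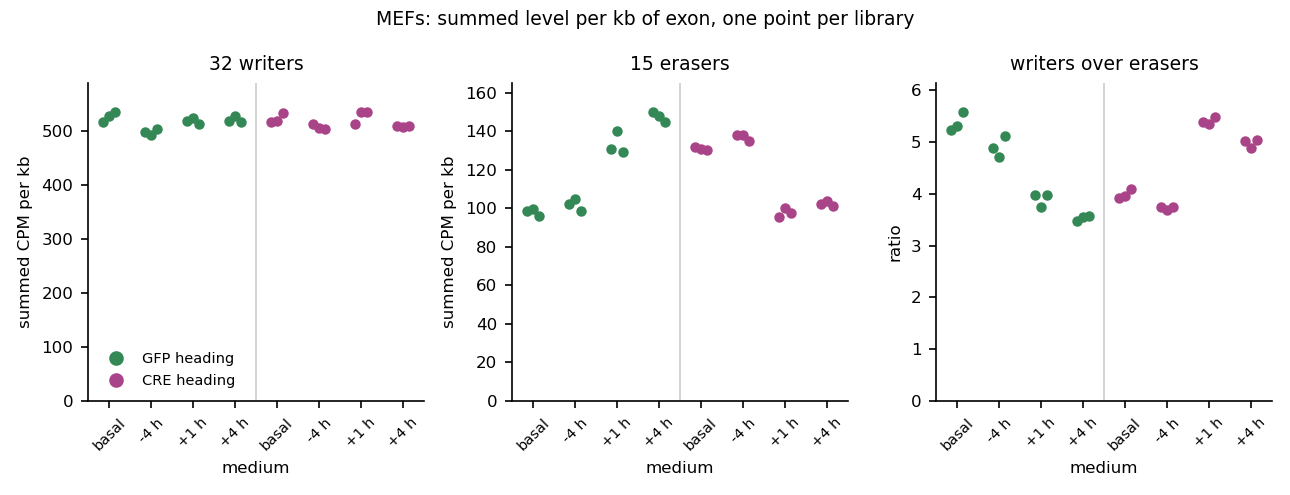
Summed CPM per kilobase of 32 writers (left) and 15 erasers (middle) and their ratio (right) in each of 24 MEF libraries, by heading and medium. Writers stay between 494 and 536, whereas erasers take 95.6 to 105 or 129 to 150, the higher level being under CRE in basal and deprived medium and under GFP after replenishment.

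Kdm6b had the widest range of group means, 1.37 log2 units. Under GFP its log2 values were 10.97, 11.03 and 10.9 in basal, 10.93, 10.96 and 10.84 in deprived, 11.91, 12.02 and 11.85 in 1 h and 12.11, 12.05 and 12.05 in 4 h replenished medium. Under CRE they were 11.5, 11.52 and 11.53, then 11.54, 11.53 and 11.57, then 10.79, 10.86 and 10.83, and 10.78, 10.79 and 10.53. The headings never overlapped within a medium, CRE being the higher in the first 2 media and the lower in the last 2. The CRE minus GFP differences were 0.55, 0.63, −1.10 and −1.37 (SE 0.05 each, adjusted p = 1.16e-10, 3.21e-12, 8.73e-18 and 2.32e-20). From deprived to 1 h of methionine Kdm6b rose by 1.02 under GFP and changed by −0.72 under CRE, an interaction of −1.73 ± 0.07 (adjusted p = 1.84e-19).

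The Kdm4 enzymes erase H3K9 and H3K36 methylation. Kdm4a, whose promoter is printed above, was at 11.17, 11.25 and 11.2 (basal), 11.23, 11.3 and 11.22 (deprived), 11.77, 11.88 and 11.76 (1 h) and 11.86, 11.9 and 11.84 (4 h) under GFP. Its values under CRE were 11.9, 11.91 and 11.92, 11.91, 11.9 and 11.84, 11.24, 11.36 and 11.29, and 11.4, 11.36 and 11.38. Each medium separated the headings completely, with differences of 0.71, 0.63, −0.50 and −0.49 (SE 0.04 each, adjusted p = 2.45e-16, 2.55e-15, 1.01e-12 and 1.47e-12). Kdm4b differed by 0.51, 0.52, −0.34 and −0.44 (SE 0.05) and Kdm4c by 0.29, 0.42, −0.51 and −0.49 (SE 0.06), all past the threshold under every alternative.

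The Kdm5 enzymes erase H3K4 methylation. Kdm5b was at 9.98, 9.87 and 9.8 (basal), 9.79, 9.74 and 9.6 (deprived), 10.38, 10.44 and 10.34 (1 h) and 10.52, 10.57 and 10.6 (4 h) under GFP. Under CRE it was at 10.23, 10.26 and 10.21, 10.39, 10.41 and 10.18, 9.73, 9.7 and 9.49, and 9.62, 9.73 and 9.71. Again no medium had overlapping headings, and the differences were 0.35, 0.62, −0.75 and −0.87 (SE 0.06 each, adjusted p = 1.44e-05, 3.15e-10, 8.22e-12 and 1.54e-13). Kdm5a differed by 0.38, 0.46, −0.42 and −0.56 (SE 0.08). Kdm2a, an H3K36 eraser, differed by 0.15, 0.29, −0.32 and −0.39 (SE 0.04), the first of which missed the threshold with libraries shifted to 1 median (0.09, adjusted p = 0.0647). Kdm3a differed by 0.08 (adjusted p = 0.0992), 0.10 (adjusted p = 0.0478), −0.17 and −0.31, and the deprived call was lost under the same shift (0.02, adjusted p = 0.705).

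Not every eraser followed this order. Kdm7a, an eraser of H3K9 and H3K27 methylation, was lower under CRE in every medium (−0.31, −0.43, −0.68 and −0.54, SE 0.08), and Kdm2b was higher in every medium (0.22, 0.35, 0.18 and 0.22, SE 0.05). Tet3 was lower only in replenished medium (−0.04 and −0.01 against −0.46 and −0.58, SE 0.08), and Tet2 likewise passed only there (−0.27 and −0.45). The 1 h call of Tet2 missed the threshold without GFP 1 h library 2 (−0.22, adjusted p = 0.0628) or CRE 1 h library 1 (−0.22, adjusted p = 0.0625). Of the FAD-dependent pair, Kdm1b passed after replenishment alone (0.15 and 0.20, SE 0.06). Its 1 h call was lost without GFP 1 h library 1 (0.10, adjusted p = 0.231), and also without any 1 of the CRE 1 h libraries. Kdm1a was called in none of the 17 MEF comparisons and its group means spanned 0.08 log2 units, with library values of 10.32 to 10.49.

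**Figure D5:**
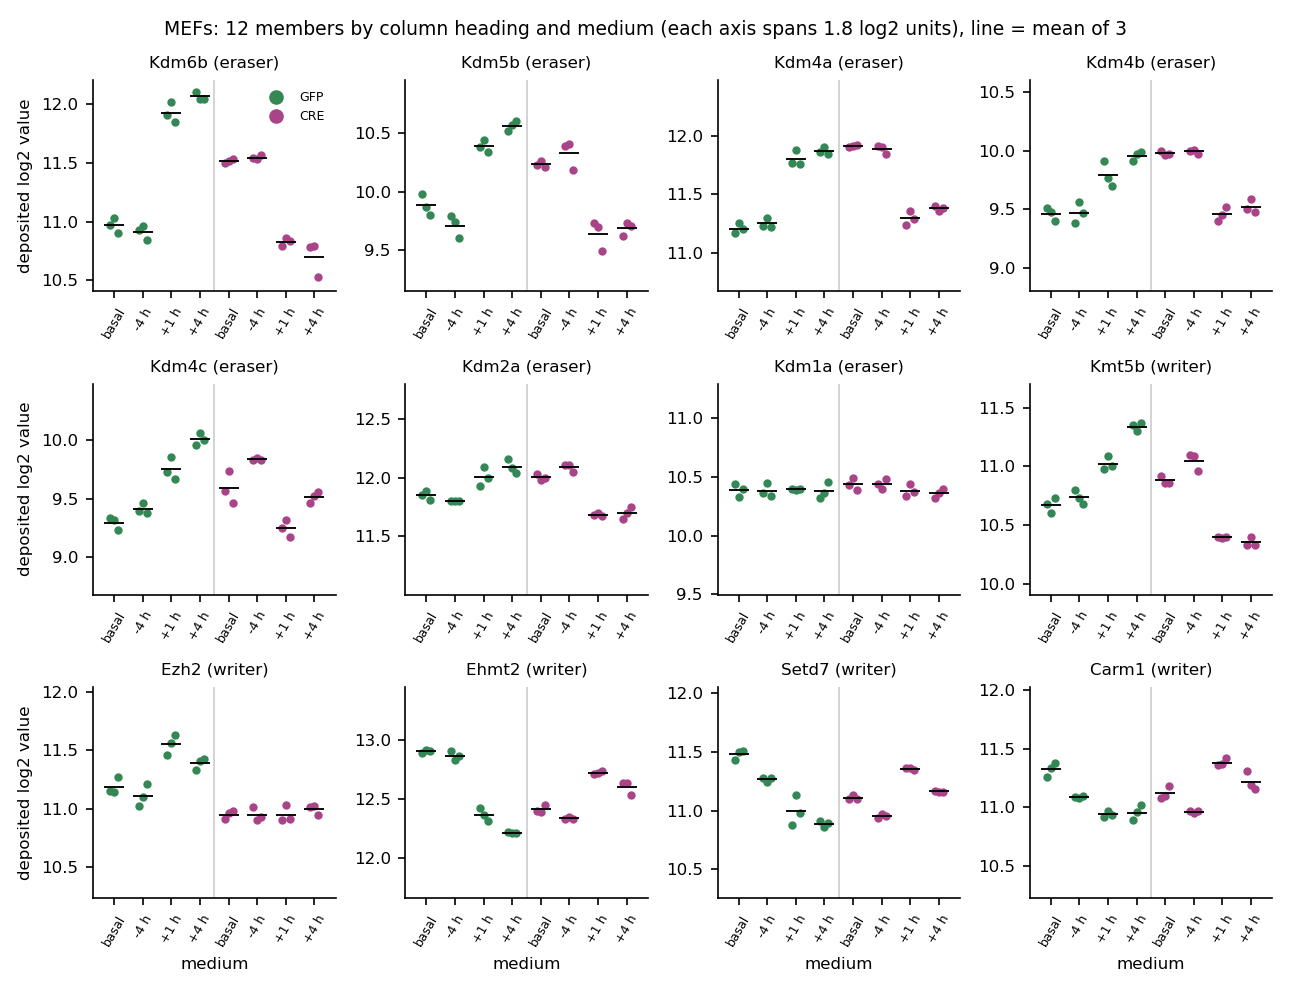
Deposited log2 values of 12 members in each of 24 MEF libraries, GFP and CRE headings in separate colours, media from left to right, each panel's axis spanning the same range. The headings cross between deprived and replenished medium for Kdm6b, Kdm5b, the Kdm4 genes, Kdm2a and Kmt5b, cross the other way for Ehmt2, Setd7 and Carm1, and do not cross for Ezh2, while the points of Kdm1a overlap.

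Writers went both ways. Kmt5b, which with Kmt5c forms the di- and trimethylated H4K20 marks, was at 10.68, 10.6 and 10.73 (basal), 10.8, 10.73 and 10.68 (deprived), 10.98, 11.09 and 11 (1 h) and 11.35, 11.3 and 11.37 (4 h) under GFP. Under CRE it was at 10.92, 10.86 and 10.86, 11.1, 11.09 and 10.96, 10.4, 10.39 and 10.4, and 10.33, 10.4 and 10.33. Its headings were apart in every medium and crossed as the JmjC genes did (0.21, 0.31, −0.63 and −0.99, SE 0.04 each, adjusted p = 0.000121, 3.22e-07, 1.63e-13 and 1.21e-18). Setd2, which writes H3K36 trimethylation, differed by 0.41, 0.48, −0.47 and −0.34 (SE 0.08), and Setd1b by 0.40, 0.42, −0.28 and −0.16 (SE 0.07). With groups fitted alone the 4 h difference of Setd2 missed the threshold (adjusted p = 0.0544), as did that of Setd1b with libraries shifted to 1 median (−0.12, adjusted p = 0.138) or without GFP 4 h library 1 (−0.11, adjusted p = 0.204), among others.

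Ehmt2 ran opposite to these, at 12.89, 12.92 and 12.91 (basal), 12.91, 12.83 and 12.87 (deprived), 12.42, 12.36 and 12.31 (1 h) and 12.22, 12.21 and 12.21 (4 h) under GFP. The values under CRE were 12.4, 12.39 and 12.45, 12.33, 12.35 and 12.33, 12.71, 12.72 and 12.74, and 12.64, 12.64 and 12.53. CRE was thus below GFP in the first 2 media and above it in the last 2, with no overlap (−0.49, −0.53, 0.36 and 0.39, SE 0.04 each, adjusted p = 1.59e-13, 1.73e-14, 3.03e-10 and 2.97e-11). Setd7 (−0.37, −0.32, 0.36 and 0.28) and Carm1 (−0.20, −0.13, 0.44 and 0.26), also with SE 0.04, had the same order of signs. Per kilobase, Ehmt2 had group values of 41.7 to 64.6 CPM, below those of Prmt1 (88.8 to 96.6).

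Ezh2 kept 1 sign. It was at 11.15, 11.14 and 11.27 (basal), 11.02, 11.1 and 11.21 (deprived), 11.46, 11.56 and 11.63 (1 h) and 11.33, 11.41 and 11.42 (4 h) under GFP. Under CRE it was at 10.91, 10.96 and 10.98, 11.01, 10.9 and 10.93, 10.9, 11.03 and 10.91, and 11.01, 11.02 and 10.95. CRE was below GFP in all 4 media, by −0.24, −0.16, −0.60 and −0.40 (SE 0.05; adjusted p = 0.000137, 0.00495, 5.29e-12 and 3.25e-08), and the deprived call was lost without GFP deprived library 3 (−0.11, adjusted p = 0.0669). Its relative Ezh1 differed by 0.26, 0.28, −0.48 and −0.42 (SE 0.09), of which the first 2 were lost with libraries shifted to 1 median (0.19, adjusted p = 0.0774, and 0.20, adjusted p = 0.0556) and the deprived one without GFP deprived library 3 (0.12, adjusted p = 0.133).

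Among DNA methyltransferases, Dnmt1 differed by −0.23, −0.30, −0.06 (adjusted p = 0.26) and −0.17 (SE 0.04). Dnmt3a differed by −0.33, −0.23, −0.09 (adjusted p = 0.308) and 0.05 (adjusted p = 0.588; SE 0.07). Dnmt3b differed by 0.49, 0.37, −0.29 and −0.19 (adjusted p = 0.175; SE 0.12). The 1 h call of Dnmt3b was lost without GFP 1 h library 3 (−0.19, adjusted p = 0.224), among others, and its deprived call without GFP deprived library 2 (0.25, adjusted p = 0.0864). The signs of Dnmt1 and Dnmt3a in basal medium were opposite to those in fed liver, in other cells and another design, and that difference was not tested. Prmt1 had no call between headings in any medium and a range of group means of 0.16.

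Within a heading, fewer members were called from basal to deprived medium than from deprived to replenished medium, and the same held for all genes. Changes into replenished medium also rest on the headings of those columns, which were not tested. From basal to deprived medium, no writer rose and 10 fell and 1 eraser rose and 1 fell under GFP (all genes, 10% higher and 13.6% lower), led by Carm1 (−0.24), Smyd2 (−0.23), Setd7 (−0.21) and Dnmt1 (−0.20). Under CRE, 1 writer rose and 4 fell and 2 erasers rose and 1 fell (15% and 13.5%), with Dnmt1 at −0.26 and Kdm4c at 0.25. The interaction of heading and withdrawal called 0 members by limma (all genes, 3.23% and 1.55%), with 8 of 46 at an unadjusted p under 0.05 where all genes had 19.7%. Prmt5 had the smallest adjusted p, 0.0507, and edgeR and DESeq2 on recovered counts called 1 member each.

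Set against basal instead, the 1 h medium had 12 writers higher and 6 lower and 7 erasers higher and none lower under GFP (29.2% and 29.6%), and 5 and 10 writers and 0 and 11 erasers under CRE (23.2% and 25%). These comparisons share libraries with the next ones.

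Against deprived medium, after 1 h of methionine, 13 writers rose and 4 fell and 8 erasers rose and 2 fell under GFP (30.7% and 28.8%). Under CRE, 7 writers rose and 12 fell and 1 eraser rose and 10 fell (30% and 30.1%). By 4 h the counts against deprived medium were 16 and 4 writers and 10 and 0 erasers under GFP (33.3% and 32.8%), and 6 and 10 writers and 1 and 10 erasers under CRE (26% and 25.9%). The interaction of heading and 1 h of methionine called 5 writers positive and 16 negative, and no eraser positive and 10 negative (33.5% and 33.1% of all genes). Among erasers it was −1.14 for Kdm4a and −1.36 for Kdm5b, and among positive writers 0.89 for Ehmt2 and 0.68 for Setd7. With libraries shifted to 1 median, the interaction counts were 9 and 12 for writers and 1 and 8 for erasers (all genes, 6107 and 3660, with a median shift of 0.17). The same shift changed writers higher and lower to 7 and 10 for 1 h against basal under GFP, to 8 and 7 for 1 h against deprived under CRE, and to 12 and 7 for 4 h against deprived under GFP.

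From 1 h to 4 h, 2 writers rose and 5 fell and 7 erasers rose and none fell under GFP (17.9% and 18.8%), and 3 writers rose and 7 fell and 4 erasers rose and none fell under CRE (13.4% and 12%). Under CRE the total of 14 members became 10 without the library that stood apart, CRE 4 h library 3. Dot1l, for example, was then at −0.11 (adjusted p = 0.121). Other libraries moved the CRE total as well. It was 12, 10 and 9 without CRE 1 h library 1, 2 or 3, and 16 and 17 without CRE 4 h library 1 or 2. Under GFP the total of 14 became 9 without GFP 4 h library 3. The interaction called the writers Dot1l (−0.42) and Kmt5b (−0.36) and the eraser Kdm6b (−0.27), where 4.25% of all genes were positive and 2.9% negative. Of these only the call of Kmt5b passed under every alternative. That of Dot1l was lost without any 1 of 6 libraries (GFP 1 h 1 or 3, GFP 4 h 2 or 3, CRE 1 h 2 or 3; −0.39 without GFP 1 h library 1, adjusted p = 0.0658), and its value was −0.26 (adjusted p = 0.0185) without CRE 4 h library 3. That of Kdm6b was lost without any 1 of 5 libraries (GFP 1 h 3, GFP 4 h 1, CRE 1 h 2 or 3, CRE 4 h 3), with −0.18 (adjusted p = 0.0633) without CRE 4 h library 3.

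Related genes were counted between CRE and GFP in the 4 media. Of all genes, 29.7%, 32%, 26.9% and 30.8% were higher and 28.6%, 30.6%, 28.1% and 29% lower in basal, deprived, 1 h and 4 h medium. Of 12 further erasers, 7, 7, 0 and 0 were higher and 1, 2, 6 and 7 lower under CRE in the 4 media, with Alkbh1 (0.74, 1.30, −0.63 and −0.85) the widest of those named and Kdm6a, the X-linked relative of Kdm6b, at 0.15, 0.29, −0.67 and −0.84. Of 18 further writers, 8, 11, 5 and 5 were higher and 2, 2, 9 and 9 lower. Of 10 PRC2 partners 0, 1, 1 and 2 were higher and 6, 5, 5 and 5 lower, where 28.6%, 30.6%, 28.1% and 29% of all genes were lower, with Phf19 at −0.94 in basal medium and Suz12, a core subunit, at −0.19. Mat2a, which makes SAM in cells other than hepatocytes, was at group means of 12.34, 12.17, 13.89 and 13.77 under GFP and 13.60, 13.59, 11.80 and 11.43 under CRE, a difference of 1.25, 1.42, −2.08 and −2.35 (SE 0.15). Its order over the 8 groups had the same signs as that of Kdm6b. Proliferation genes summed to 4710 to 5090 CPM in GFP basal and 3670 to 3880 in CRE basal libraries, 4390 to 4620 and 3410 to 3500 in deprived, 3670 to 3970 and 3880 to 4190 after 1 h and 3690 to 3770 and 3780 to 3990 after 4 h. Their part in the heading differences was not tested.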

How the data were processed

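RNA was measured in 36 libraries, 12 from liver and 24 from MEFs, each group having 3; groups follow the sample labels. Liver values are raw read counts per gene deposited by the authors, made with HISAT2, Subread and mm10 per the submitters' processing notes. Of 136300 genes, 87774 carry NONCODE identifiers. MEF values are log2 variance-stabilised values deposited by the authors, with STAR 2.7.10b, featureCounts and mm10 named in those notes. Libraries are polyadenylated and dUTP-stranded per the labels' protocols; the strand setting of the counting is not given in the sources used here.

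Liver counts were tested with edgeR 4.0.16 (quasi-likelihood, expression filter, TMM, 12 libraries in 1 fit) in R 4.3.3, and the CPM values printed are TMM-scaled. MEF values were tested with limma 3.58.1 (trend and robust moderation, 24 libraries in 1 fit) for genes with a mean at least 1 above the lowest value of 4.17. All p-values are two-sided, adjusted over every gene tested and read against 0.05, and errors are standard errors. The scripts were tested on simulated data with 100 genes changed at each size. Far more genes passed in the real tests, so the adjusted threshold was stricter in the simulation, and its rates do not give the share missed here. In liver, for fasting in WT, edgeR recovered 11 of 100 genes changed by 0.5 log2 units and 73 of 100 changed by 1. In MEFs, for CRE against GFP in basal medium, limma recovered 53 of 100 at 0.25 and 94 of 100 at 0.5. Precision is limited by 3 libraries per group, and small changes can be missed. Alternatives were DESeq2 1.42.0, other scalings and filters, count tests on recovered MEF counts, a replicate block and leaving out each library. On recovered counts edgeR called 4357 genes higher and 3880 lower for CRE in basal MEFs, where limma called 4127 and 3986. Lists and members were chosen with earlier results of these data known. Up to 12 members per tissue were picked for printing of library values, those of smallest adjusted p with at least 3 writers and 3 erasers. Outside this rule, liver values are also printed for Kdm1b, for Dnmt3b in fed livers and for Kdm6b in fasted livers. Other listed genes are named by smallest adjusted p.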

Additional observations from a re-analysis of the deposited data

Results flagged for a closer look

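In liver the response to fasting differed between genotypes, by the interaction term, for Setd1b (−0.65), Prmt1 (0.87) and Dnmt1 (0.72), where 6.35% of all genes were positive and 5.7% negative. None of these 3 calls held with every library left out in turn.

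In MEFs the change from deprived to 1 h replenished medium differed between the CRE and GFP headings, by the interaction term (CRE minus GFP), for 31 of 46 tested members. Of these, 25 passed under every alternative. Of all genes, 33.5% were positive and 33.1% negative by this term, so members were called about as often as other genes. Among writers of H3K4 methylation it was −0.30 for Kmt2b, −0.68 for Kmt2c, −0.70 for Setd1b and 0.68 for Setd7. Among H3K36 writers it was −0.95 for Setd2, −0.38 for Nsd2, −0.29 for Nsd3 and −0.29 for Smyd2. The H3K79 writer Dot1l had −0.31, and the H3K27 writers Ezh1 and Ezh2 had −0.76 and −0.44. H3K9 writers split, with 0.27 for Suv39h1 and 0.89 for Ehmt2 but −0.46 for Suv39h2, −0.19 for Ehmt1 and −0.38 for Setdb1. The H4K20 writers Kmt5a and Kmt5b had −0.36 and −0.94. The arginine writer Carm1 had 0.56, and the DNA writers Dnmt1 and Dnmt3b had 0.24 and −0.66.

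The same 1 h interaction called 10 of the 14 tested erasers, all 10 negative: Kdm2a −0.61, Kdm2b −0.17, Kdm3a −0.26, Kdm4a −1.14, Kdm4b −0.85, Kdm4c −0.93, Kdm5a −0.88, Kdm5b −1.36, Kdm6b −1.73 and Tet3 −0.45. With libraries shifted to 1 median the called erasers were not all negative, as given above. From 1 h to 4 h the headings differed for Dot1l (−0.42), Kmt5b (−0.36) and Kdm6b (−0.27), where 4.25% of all genes were positive and 2.9% negative. Of these 3 only Kmt5b passed under every alternative; Dot1l was at −0.26 and Kdm6b at −0.18 without CRE 4 h library 3.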

How the results depend on the processing

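In fasting in WT liver 9 members passed (5 higher, 4 lower); 14 did with library sizes alone (1 and 13) and 14 with Ensembl genes only (10 and 4). Without the count filter 1 member passed for fasting in knockout-labelled liver (0 otherwise). DESeq2 and Ensembl genes only each gave 5 for the liver interaction (3 otherwise). With only the compared groups fitted, deprived against basal under CRE went from 8 to 17, 4 h against 1 h under CRE from 14 to 5, the interaction of heading and withdrawal from 0 to 4 and that of heading and 4 h against 1 h from 3 to 1.

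Differences that passed on at least 1 of the scalings and turned sign with library sizes alone were, fed, Nsd1 (0.051) and Nsd3 (0.051), and fasted, Kmt2a (0.065), Kmt2b (0.17), Kmt2d (0.12), Kdm4b (0.13), Ash1l (0.21), Tet3 (0.48), Kdm1b (0.41), Suv39h1 (0.49), Setd2 (0.41) and Kdm2a (0.32). In MEFs Kmt5c in 4 h replenished against deprived medium under CRE, at −0.015, was between −0.166 and 0.278 with 1 library left out, the latter without CRE 4 h library 3, and the interaction of Prmt5 at 1 h turned to 0.14 with libraries shifted to 1 median. The gap between the lowest knockout-labelled and the highest WT ratio of writers to erasers in liver went from 0.176 to −0.007 without Kmt5a. The causes were not tested.

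Leaving out 1 library at a time gave 4 to 7 members for fasting in WT, 0 to 1 for fasting in knockout-labelled, 11 to 16 for the label in fed, 17 to 21 in fasted liver and 0 to 4 for the interaction. For CRE against GFP it gave 24 to 26 (basal), 25 to 29 (deprived), 26 to 28 (1 h) and 29 to 33 (4 h). For deprived against basal it gave 9 to 12 under GFP and 7 to 8 under CRE, for 1 h against deprived 25 to 27 and 26 to 28, for 4 h against 1 h 9 to 12 and 9 to 17, for 1 h against basal 23 to 26 and 25 to 28, and for 4 h against deprived 26 to 31 and 26 to 29. The 3 heading interactions gave 0 to 1, 29 to 33 and 1 to 4.

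MEF libraries carry replicate numbers, and whether these mark pairs cannot be told. Deviations of same-numbered libraries correlated at a median of 0.024 (−0.163 to 0.23, 84 pairs) and others at −0.017 (−0.29 to 0.278, 168 pairs). Of 24 libraries 13 correlated best with their own number, although pairs with another number were more frequent. With the replicate block, CRE against GFP called 26, 31, 30 and 31 members in the 4 media (26, 31, 30 and 32 without it), the interaction with withdrawal 2 (0 without it), with 1 h 31 (31) and with 4 h 4 (3). Within GFP and CRE the block gave 12 and 8 for deprived against basal, 26 and 30 for 1 h against deprived, 14 and 15 for 4 h against 1 h, 24 and 26 for 1 h against basal and 31 and 28 for 4 h against deprived. No paired analysis was possible in liver because the liver columns carry no replicate number. At this depth Tet1 could not be assessed.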
